A study of Mus musculus with 6 samples.

Results

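Transcriptional repressors of 4 families were examined, 9 genes in all: the Snail genes Snai1, Snai2 and Snai3, the Scratch genes Scrt1 and Scrt2, the Zeb genes Zeb1 and Zeb2 and the Twist genes Twist1 and Twist2. They were matched by gene name to the 36699 rows of the authors' gene table, and 7 of the 9 names had a row of their own. Zeb1 stood in a row that also carries the name Zeb1.1, so it is given apart and is not counted among the 7. No row matched Snai3, which was not analysed here. All 7 rows had been tested by the authors.

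The cells were A2Lox.cre mouse embryonic stem (ES) cells, a line built to take up transgenes under doxycycline control, grown on mouse embryonic fibroblasts and then as embryoid bodies until day 3. One group of 3 libraries (replicates 2, 3 and 4) had no doxycycline. The other group of 3 (replicates 1, 3 and 4) received doxycycline from day 2, for 24 hours, to induce Flag-Sp5, the tagged form of a zinc-finger protein that acts downstream of Wnt signals. Both groups carried the inducible transgene, cells with the drug and no transgene were not analysed here, and the drug and Sp5 cannot be told apart. The labels do not say whether the libraries came from separate cultures or from 1 clone, so the spread behind the p-values may be technical.

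Snail and Scratch proteins are zinc-finger factors that bind E-boxes and recruit co-repressors through a short domain at their N-terminus. Zeb proteins bind the same kind of site with clusters of zinc fingers at both ends, and Twist proteins are basic helix-loop-helix (bHLH) factors that bind E-boxes as dimers. Snai1, Snai2 and the Zeb and Twist genes are known for driving the change from epithelial to mesenchymal cells. In the mouse embryo Snai1 acts in the primitive streak, where cells lose E-cadherin and leave the epiblast. Snai2, Twist1 and the Zeb genes act later in mesoderm, neural crest or limb, and the Scratch genes in newly formed neurons.

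Promoter sequences were at hand for 4 of the 9 genes (Snai1, Zeb2, Twist1 and Twist2; RefSeq, build GRCm38.p6), taken as the 250 bases before each annotated start. A pair is shown, that of the gene with the highest level, which rose, and that of the gene which fell. Capitals mark the E-box CAGGTG, the form that Snail and Zeb proteins bind best, or the GC-box GGGCGG, the kind of site that Sp factors bind. Both strands were searched, so CACCTG and CCGCCC are the same motifs read on the other strand.
Snai1, chr2:167537945-167538194, plus strand: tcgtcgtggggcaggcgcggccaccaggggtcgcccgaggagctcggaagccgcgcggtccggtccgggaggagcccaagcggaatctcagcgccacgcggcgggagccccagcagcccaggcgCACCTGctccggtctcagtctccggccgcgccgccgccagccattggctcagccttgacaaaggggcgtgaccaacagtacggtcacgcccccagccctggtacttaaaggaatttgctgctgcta
Twist1, chr12:33957421-33957670, plus strand: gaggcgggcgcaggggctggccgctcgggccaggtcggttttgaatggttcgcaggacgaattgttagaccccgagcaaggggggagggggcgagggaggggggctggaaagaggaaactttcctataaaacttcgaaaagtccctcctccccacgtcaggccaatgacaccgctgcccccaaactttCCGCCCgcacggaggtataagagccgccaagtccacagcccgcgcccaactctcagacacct

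The Snai1 window held 1 CAGGTG, which began 126 bases before the start, and no GGGCGG. The Twist1 window held no CAGGTG and 1 GGGCGG, which began 62 bases before the start. In the Twist2 window there were 4 GGGCGG and no CAGGTG. Of 4 Zeb2 windows, the one farthest upstream held neither motif and the other 3 held 1 GGGCGG each. Among those 3, the windows chr2:45113280-45113529 and chr2:45113254-45113503 overlap and share the same GGGCGG. Over all 32851 windows of this length, 17.2% held CAGGTG and 32.7% held GGGCGG, so neither motif is rare. The looser E-box CANNTG, which includes CAGGTG, stood once in the Snai1 window, at the same place, and in none of the other 6 windows, against 66.2% of all windows. The share of G and C was 70% in the Snai1 window, 62.4% for Twist1, 68.8% for Twist2 and 49.6% to 57.6% for Zeb2. Its median over all windows was 52.4%, and the motif shares were not matched for it. These matches describe the letters only, and binding was not measured.

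Expression is given in FPKM, fragments scaled to transcript length and library size, so levels can be set side by side between genes. The authors deposited 1 value per group, made from its 3 libraries, so values per library, depth and SD are not available for any gene named here. A gene is said to have risen or fallen with q under 0.05 in the authors' Cuffdiff test. The error beside each ratio is a standard error (SE) on the log2 scale, obtained by reading the authors' test statistic as the log ratio over its SE, and each 95% interval follows from it. The induced gene went the way its label says, with Sp5 at 0.769 FPKM without and 126 FPKM with doxycycline. ES cell genes marked both groups, with Pou5f1 at 999 and 1058 FPKM.

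In cells with induced Sp5, 4 of the 7 repressor genes rose and 1 fell. Snai1, Scrt1, Scrt2 and Zeb2 rose, Twist1 fell, and Snai2 and Twist2 were not called. Among all 18537 tested rows 23.2% were called, 10.5% higher and 12.7% lower. The 4 that rose did so at least 2-fold, which 3.53% of tested rows did, while Twist1 fell by less than that and no member joined the 2.22% that fell at least 2-fold (1 of 7 had an unadjusted p under 0.05 on the lower side in the authors' Cuffdiff test). At q under 0.01 the same 5 genes were called, against 7.71% of rows higher and 9.39% lower.

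The families were low in these cells. Summed over the 7 rows they came to 3.82 FPKM without and 7.68 FPKM with doxycycline. Without doxycycline Snai1 was highest, followed by Twist1, Zeb2, Twist2, Snai2, Scrt2 and Scrt1. With doxycycline the order was Snai1, Scrt1, Zeb2, Twist1, Twist2, Scrt2 and Snai2. Since the group values carry no SD, neighbours in these orders cannot be told apart by their spread, and Scrt2 and Snai2 were nearly level with doxycycline (0.133 and 0.132 FPKM). Scrt1 moved from the last place to the second, and Twist1 from the second to the fourth. Only 2 genes reached 1 FPKM in each group, Snai1 and Twist1 without and Snai1 and Scrt1 with doxycycline. The remaining 4 stayed under 1 FPKM in both, and of these Zeb2 and Scrt2 were called; among the 6211 tested rows that low, 13.2% were called and 8.61% were higher.

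**Figure D1:**
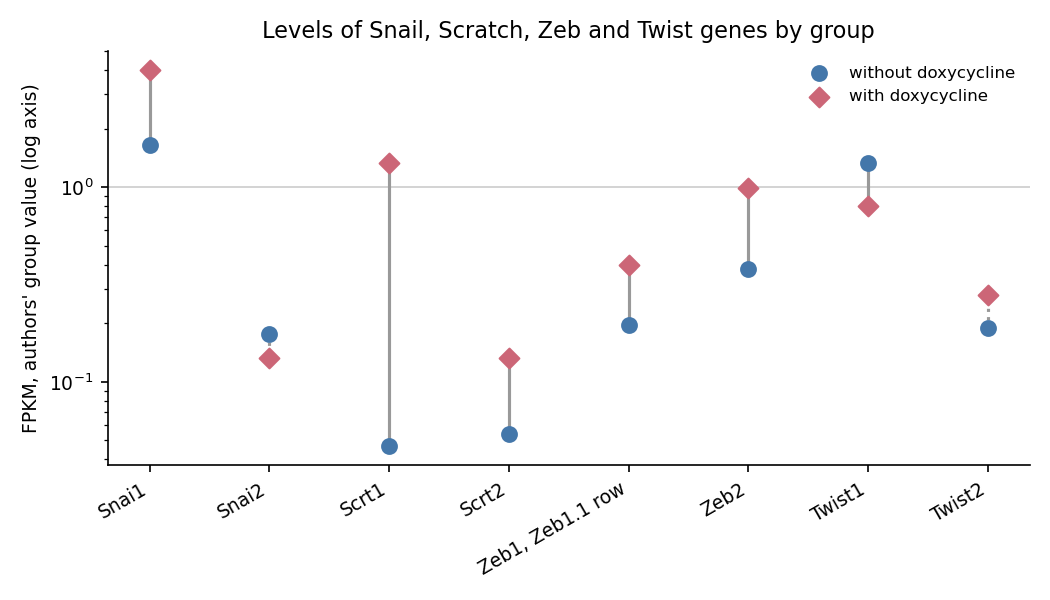
FPKM (log axis) of each gene without (circles) and with doxycycline (diamonds), 1 authors' value per group, with solid lines for called genes and dotted lines for Snai2 and Twist2, which were not called; the Zeb1 row also names Zeb1.1. Snai1 is the highest gene in both groups, and the longest line is that of Scrt1, from 0.0467 to 1.33 FPKM.

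Snai1, the Snail gene of the primitive streak, stood at 1.64 FPKM without and 4.02 FPKM with doxycycline. It was 2.45-fold higher (95% interval 2.03 to 2.96; log2 ratio 1.29, SE 0.14; the authors' deposited table lists q as 0). The row spans chromosome 2, 167363695 to 167368314 of mm9, and no other row overlaps it. With 2.38 FPKM it had the largest gain of the 7, larger than the 1.28 FPKM of Scrt1. Its share of the summed level was 42.9% without and 52.4% with doxycycline. In level it moved from percentile 41.6 to percentile 53.2 of tested rows. Its nearest row, Gm11474, stood at 0.11 and 0.12 FPKM and was not called (q = 0.986 in the authors' deposited table).

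Snai2 (Slug), its close relative of neural crest and later mesoderm, went from 0.177 to 0.132 FPKM and was not called (q = 0.443 in the authors' deposited table). The ratio was 0.75 with a 95% interval of 0.482 to 1.17, which holds both no change and a fall of over 2-fold. Snai1 was 9.29 times as high as Snai2 without doxycycline and 30.4 times with it. The log2 ratios of the pair differed by 1.71 (combined SE 0.35, taking the errors of the genes as independent although they come from the same libraries). The Snai2 row lies on chromosome 16, 14705945 to 14709488 of mm9, and the nearest tested row, a U6 RNA at 97.8 kb, was not called (q = 0.930 in the authors' deposited table).

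Scrt1, a Snail-related repressor best known from neurons, had the largest relative change of the 7, from 0.0467 to 1.33 FPKM. The ratio was 28.4 (95% interval 19.1 to 42.1; log2 ratio 4.83, SE 0.29; the authors' deposited table lists q as 0). Among the 1948 rows that rose and have a ratio, 13 rose by more. Without doxycycline Scrt1 lay at percentile 2.18 of tested rows in level, and with it at percentile 38.7. Its share of the families' summed level went from 1.22% to 17.3%. The row covers chromosome 15, 76346633 to 76352559 of mm9, and is overlapped by no other row. Neither neighbour was called. Dgat1, 4.25 kb away, stood at 12.1 and 13.9 FPKM, and Fbxl6, 13.6 kb away on the other side, at 22.023 FPKM without and 22.002 FPKM with doxycycline (q = 0.304 and 0.998 in the authors' deposited table). The size of the ratio depends on a low starting value: with a pseudocount of 1 FPKM the log2 difference was 1.15.

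Scrt2, the second Scratch gene, went from 0.054 to 0.133 FPKM. It rose 2.47-fold (95% interval 1.56 to 3.89; log2 ratio 1.30, SE 0.34; q = 0.000878 in the authors' deposited table). Its gain of 0.0791 FPKM was the smallest among the genes that rose. The pair started close together, with Scrt1 at 0.866 times the level of Scrt2, and ended with Scrt1 at 9.96 times that level. Their log2 ratios differed by 3.52 (combined SE 0.44). Scrt2 lies on chromosome 2, 151907265 to 151921538 of mm9, beside Srxn1, which stood at 10.1 and 9.77 FPKM and was not called (q = 0.838 in the authors' deposited table).

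Zeb2 (Sip1), a zinc-finger and homeodomain repressor of E-cadherin and of early mesendoderm genes, went from 0.382 to 0.986 FPKM. It rose 2.58-fold (95% interval 1.95 to 3.42; log2 ratio 1.37, SE 0.21; q = 7.94e-10 in the authors' deposited table). That ratio is close to that of Snai1, from which it differed by 0.08 on the log2 scale (combined SE 0.25). In level Zeb2 stood at 0.233 times Snai1 without and 0.245 times with doxycycline. The row spans 134 kb of chromosome 2, 44839154 to 44972915 of mm9. It is overlapped by the row Gm13476, which went from 0.0814 to 0.309 FPKM and also rose (3.80-fold, q = 0.0323 in the authors' deposited table). The protocol mentions no marking of strand, so reads of these overlapping rows may not be separable, and the rise of Zeb2 is uncertain to that extent.

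The row that names Zeb1 and Zeb1.1 went from 0.196 to 0.399 FPKM. It rose 2.04-fold (95% interval 1.43 to 2.90; log2 ratio 1.03, SE 0.26; q = 0.000682 in the authors' deposited table). With it, 5 rows of 8 would have risen. It overlaps Gm10125, which stood at 0.21 and 0.253 FPKM and was not called (q = 0.811 in the authors' deposited table). As for Zeb2, reads of these overlapping rows may not be separable, and the rise of the Zeb1 row is uncertain to that extent. In both groups the Zeb2 row was higher than this one.

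Twist1, a bHLH factor of mesenchyme and cranial neural crest, was the member that fell, from 1.33 to 0.803 FPKM. The ratio was 0.602 (95% interval 0.477 to 0.759; log2 ratio -0.73, SE 0.17; q = 0.000173 in the authors' deposited table). Its share of the families' summed level went from 34.9% to 10.4%. The row lies on chromosome 12, 34642536 to 34644682 of mm9. The nearest row on 1 side, 87.8 kb away, is the histone deacetylase gene Hdac9, which fell from 0.917 to 0.624 FPKM (q = 0.00764 in the authors' deposited table). The nearest row on the other side, the bHLH gene Ferd3l, was listed at 0 and 0.00314 FPKM and was not tested.

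Twist2, its paralog, went from 0.19 to 0.279 FPKM and was not called (q = 0.248 in the authors' deposited table). The ratio was 1.47 with a 95% interval of 0.943 to 2.29, so neither no change nor a 2-fold rise lies outside it. The Twist genes differed in log2 ratio by -1.29, Twist1 minus Twist2 (combined SE 0.37). Twist1 was 7.03 times as high as Twist2 without and 2.88 times with doxycycline. Twist2 lies on chromosome 1, 93698038 to 93744605 of mm9, and its neighbour Hdac4 was not called (2.89 and 3.12 FPKM).

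By family, the Snail rows summed to 1.82 and 4.16 FPKM, the Scratch rows to 0.101 and 1.46 FPKM and the Twist rows to 1.52 and 1.08 FPKM, without and with doxycycline. The Twist share of the total was 39.8% without and 14.1% with doxycycline, and the Scratch share 2.63% and 19.0%. The median log2 ratio of the 7 rows was 1.29, against -0.03 over all tested rows. Tested rows at 2-fold or less from a called member in level (the higher group value) were counted when called in that member's direction (q under 0.05). Such calls made up 14.8% of these rows for Snai1, 13.5% for Scrt1, 13.3% for Zeb2, 12.8% for Twist1 and 5.91% for Scrt2.

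**Figure D2:**
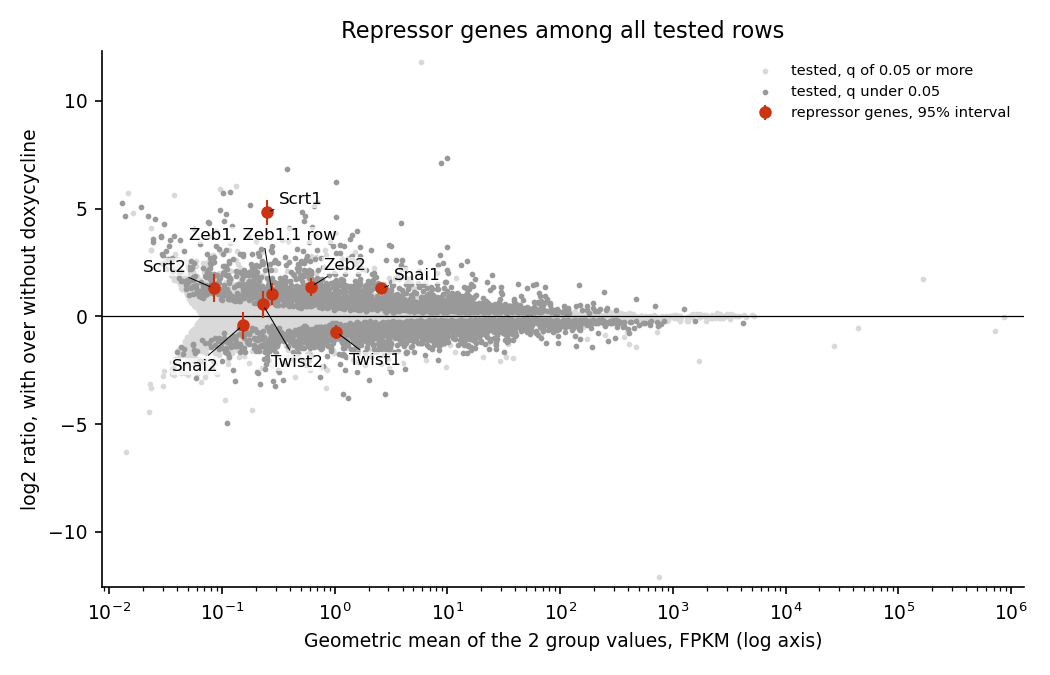
The log2 ratio (with over without doxycycline) against the geometric mean of both group values in FPKM (log axis) for all tested rows above 0 in both groups (grey) and for the repressor genes (red, with 95% intervals). Scrt1, at 4.83, stands above most rows of its level, Snai1 and Zeb2 lie at 1.29 and 1.37, and the intervals of Snai2 and Twist2 cross 0.

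Epithelial genes, among which are textbook targets of Snail and Zeb proteins, were mostly lower. Among 38 genes with a test, 23 fell, 2 rose and 13 passed in neither direction, with a median log2 ratio of -0.30. Markers of endoderm, whose visceral layer is itself an epithelium, were lower beside them (8 of 19 fell, 0 rose, and 0 rose at an unadjusted p under 0.05 in the authors' Cuffdiff test; sum 301.0 FPKM without and 226 FPKM with doxycycline), and their part in the fall of the epithelial genes was not tested. That endoderm sum covers all 20 rows, among them Dab2 (85.2 and 56.6 FPKM), which had status FAIL. Most falls of epithelial genes were small, and 4 of the 23 reached 2-fold. Cdh1, which encodes E-cadherin and is the classical target of Snail and Zeb proteins, fell from 134 to 99.7 FPKM (ratio 0.745, log2 -0.43, SE 0.07; q = 3.76e-08 in the authors' deposited table). The polarity gene Crb3 fell from 43.9 to 27.8 FPKM, the claudin gene Cldn7 from 62.9 to 44.2 FPKM and Epcam, an adhesion molecule, from 125 to 106 FPKM. Ovol2 (5.43 to 3.80 FPKM) and Grhl2 (10.6 to 8.59 FPKM), factors that keep cells epithelial and restrain Zeb1, fell as well. The largest falls were those of the desmosomal plakophilin gene Pkp2 (24.4 to 9.48 FPKM), Rab25, a vesicle GTPase of epithelia (43.3 to 17.0 FPKM), and Mal2 (6.24 to 2.75 FPKM). The keratin gene Krt19 (13.7 to 19.0 FPKM) and Elf3 (6.38 to 8.24 FPKM) rose, and the splicing factor gene Esrp1 (26.1 and 27.3 FPKM) was not called.

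Mesenchymal genes went both ways. Leaving out the repressors themselves, 5 of 25 rose, 6 fell and 14 did not pass the test, with a median of -0.18. Of all tested rows 10.5% were higher and 12.7% lower. The list had 18 tested genes with 1 FPKM or more in a group, of which 3 rose and 6 fell. Of all tested rows at that level 11.9% were higher and 17.5% lower, with q adjusted over those rows. Among the mesenchymal genes that rose, the matrix protease gene Mmp2 went from 6.62 to 14.9 FPKM, Mmp14 from 11.2 to 14.8 FPKM and the cadherin gene Cdh11 from 0.475 to 1.26 FPKM. Vim, the intermediate filament gene most used as a mesenchymal mark, fell from 34.1 to 24.5 FPKM, and the contractile genes Acta2 (18.9 to 9.92 FPKM) and Tagln (56.9 to 36.5 FPKM) fell too. Cdh2, which encodes N-cadherin, stood at 6.15 and 5.37 FPKM and was not called (q = 0.118 in the authors' deposited table). Fn1 (fibronectin, 16.6 and 19.8 FPKM) had status FAIL and was not tested. With both groups scaled to the same upper quartile and p computed again, 6 of the 25 were higher and 4 lower.

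**Figure D3:**
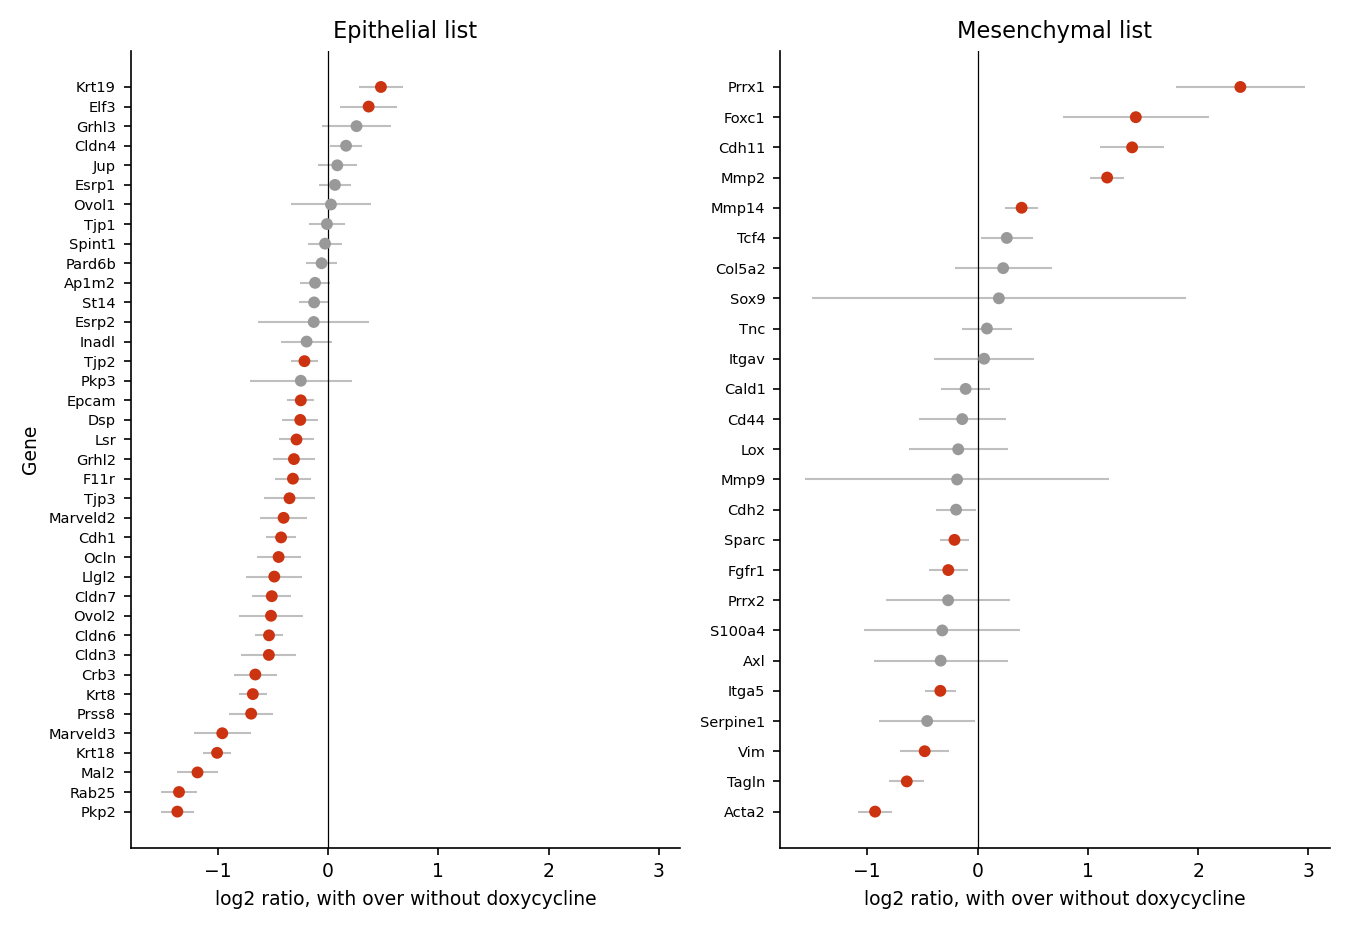
Log2 ratio (with over without doxycycline) of each tested gene of the epithelial list (left) and the mesenchymal list (right), with 95% intervals as lines; red points are called genes and grey points are not. On the left 23 red points lie below 0 and 2 above; on the right 6 lie below and 5 above.

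Genes whose products act with or on the repressor proteins were measured next. Among co-repressors and other cofactors, 8 of 29 fell, 2 rose and 19 did not pass the test. With both groups scaled to the same upper quartile and p computed again, 4 of the 29 were lower. Ctbp1, the co-repressor of Zeb proteins (42.0 and 40.9 FPKM), Kdm1a, the demethylase recruited by Snail (62.0 and 62.6 FPKM), Hdac1 (189 and 170 FPKM) and Hdac2 (127 and 122 FPKM) were not called. The LIM-domain cofactor genes Limd1 (7.85 to 3.05 FPKM) and Lmo4 (18.5 to 9.99 FPKM) and the lysyl oxidase-like gene Loxl2 (5.26 to 3.83 FPKM) fell, while the LIM gene Wtip (15.5 to 19.4 FPKM) and Rcor2 (49.1 to 56.2 FPKM) rose. Of 28 genes that set the turnover of Snail or Twist proteins, 4 rose and 6 fell, which left 18 that did not pass. Under the upper quartile scaling with p computed again, 4 were higher and 4 lower. All 28, and 28 of the 29 co-repressors, had 1 FPKM or more in a group. Among tested rows at that level 11.9% were higher and 17.5% lower, with q adjusted over those rows. The turnover counts lie near these shares. Gsk3b, the kinase that marks Snail for breakdown, fell from 7.82 to 6.67 FPKM, a call lost under that scaling (q = 0.0776), and Fbxl14, a ubiquitin ligase subunit for these proteins, rose from 12.8 to 17.6 FPKM. Axin2, which also feeds back on Wnt signalling, rose from 1.59 to 9.77 FPKM, and the phosphatase genes Ctdsp1 (17.4 to 28.4 FPKM), Ctdsp2 (16.2 to 12.4 FPKM) and Ctdspl (2.29 to 1.37 FPKM) went both ways. Cops2, a signalosome subunit that shields Snail, fell from 122 to 100.5 FPKM.

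For the Twist proteins, partners and their inhibitors were read together. All 4 Id genes, whose products bind E proteins and keep them from Twist, rose. Id1 went from 36.2 to 104 FPKM, Id2 from 23.0 to 36.2 FPKM, Id3 from 58.5 to 101 FPKM and Id4 from 1.18 to 2.71 FPKM, each with q of 2.91e-13 or less in the authors' deposited table. Of the E proteins, with which Twist pairs, Tcf12 fell from 14.2 to 11.9 FPKM (q = 0.0455 in the authors' deposited table, 0.122 under the upper quartile scaling), and Tcf3 (62.2 and 56.4 FPKM) and Tcf4 (5.35 and 6.42 FPKM) were not called, although Tcf4 was higher under that scaling (q = 0.0474). In the whole list of bHLH partners and Id genes, 5 of 16 rose and 3 fell. The fifth that rose was Mesp1, a mesoderm factor (0.0948 to 1.64 FPKM), and Tcf23 fell from 1.67 to 1.19 FPKM.

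Markers of cell types in which these repressors are known were measured beside them; in bulk RNA, fewer cells of a type and less RNA per cell cannot be told apart. Primitive streak genes, beside Snai1, rose in 13 of 18 tested cases and fell in none (0 also at an unadjusted p under 0.05 in the authors' Cuffdiff test), with T from 0.745 to 103 FPKM, the homeobox gene Evx1 from 0.119 to 9.01 FPKM and Fgf17 from 0.868 to 17.5 FPKM. That direction was known from earlier work on these files when the list was written. The sum of the streak genes went from 210 to 450 FPKM, of which Tdgf1, also on the ES cell list, made up 124 and 180 FPKM. Among the endoderm genes Cer1 fell from 7.67 to 2.90 FPKM, Sox7 from 2.49 to 1.46 FPKM and Lama1 from 11.8 to 6.98 FPKM. Of 10 ES cell genes 4 rose, with Nanog from 46.0 to 117 FPKM, Tdgf1 from 124 to 180 FPKM and Dppa5a from 1112 to 1428 FPKM. The 3 that fell were Utf1 from 314 to 119 FPKM, Dppa4 from 56.3 to 45.8 FPKM and Lin28a from 139 to 115 FPKM. Of the neuronal genes set beside Scratch, 5 of 15 tested rose and 3 fell. There Map2 (listed as Mtap2) rose from 2.72 to 11.5 FPKM and Rbfox3 from 0.708 to 1.89 FPKM, while Elavl3 fell from 3.14 to 1.57 FPKM and Chga from 4.59 to 3.44 FPKM, and 12 of the 20 rows lay under 1 FPKM in both groups. Neural crest genes rose in 6 of 16 and fell in 1. There Tfap2a rose from 0.18 to 2.50 FPKM, Msx1 from 2.41 to 13.7 FPKM, Msx2 from 0.648 to 3.70 FPKM and Foxd3 fell from 26.1 to 13.7 FPKM, but Sox10, the defining gene of the lineage, stood at 0.089 and 0.137 FPKM and was not called.

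Fibroblasts, on which the ES cells had been grown, are rich in Twist, Zeb and Snai2 transcripts. Of 18 tested fibroblast genes 3 rose and 4 fell, and their sum was 44.1 FPKM without and 45.8 FPKM with doxycycline. Over all tested rows 10.5% were higher and 12.7% lower. Thy1 fell from 9.34 to 6.42 FPKM and Dcn from 2.08 to 1.39 FPKM, Col1a1 rose from 1.11 to 4.43 FPKM and Fbln1 from 15.5 to 18.3 FPKM, and Col1a2 (1.69 and 1.499 FPKM) and Col3a1 (0.478 and 0.461 FPKM) were not called. None of the 22 was listed at 0 in both groups, and 11 lay under 1 FPKM in both. The part that streak, endoderm, neural or fibroblast cells had in the values of the repressor genes was not tested.

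**Figure D4:**
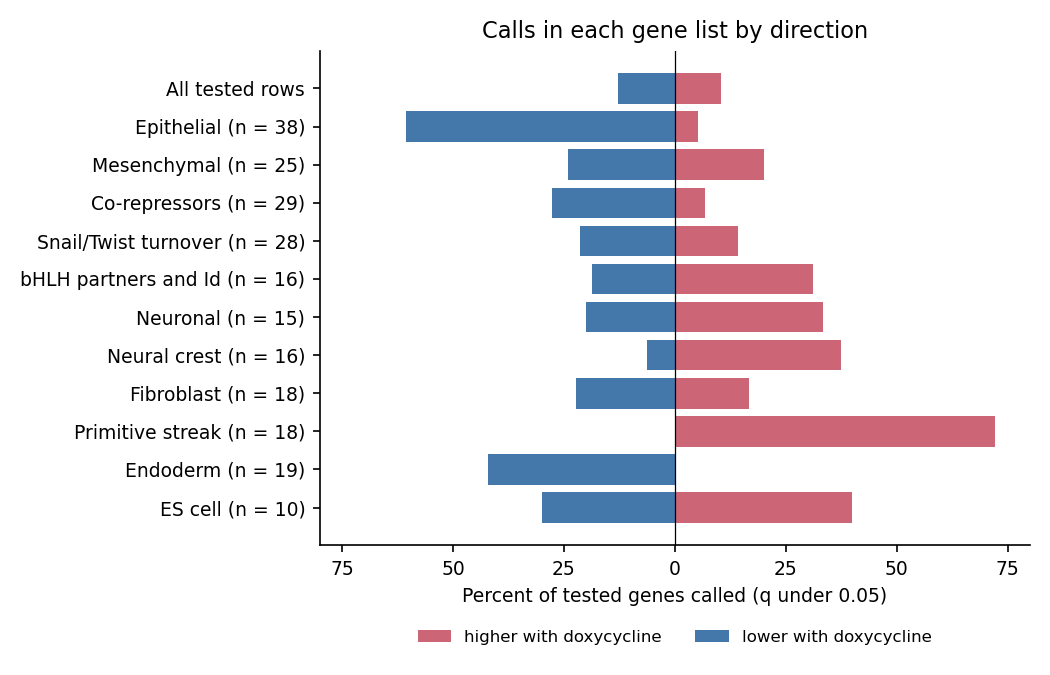
Percent of tested genes called higher (right, red) and lower (left, blue) with doxycycline in each gene list, with all tested rows on top (10.5% and 12.7%) and the number of tested genes after each name. The epithelial list has the longest bar to the left (23 of 38) and the primitive streak list the longest to the right (13 of 18).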

How the data were processed

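RNA captured with oligo-dT from 6 libraries was sequenced, per the labels' protocols. The authors deposited 1 gene table in Cuffdiff layout, with 1 FPKM value per group, a test statistic (a score with no unit) and p-values and q-values of their own test. The submitters' processing notes name Cufflinks 2.0.2 with Cuffdiff, TopHat2 2.0.8 with Bowtie, Picard, and build mm9. Which annotation and library scaling were used is not given in the sources at hand. Cuffdiff's calls were kept as deposited, because a refit needs values per library. Ratios were computed from the group values without a pseudocount (Python 3.11.15, numpy 2.4.6, pandas 2.3.3, scipy 1.17.1). The two-sided normal tail of the statistic gave the deposited p-values to within 2.84e-06 over 18284 rows, and Benjamini-Hochberg adjustment over 18537 tested rows gave the deposited q-values to within 1.79e-06. SEs from the statistic rest on its being the log ratio over its SE, which the file does not state. They hold counting and library spread only as Cuffdiff models them. Depth is unknown. Starts are given from 1. Simulated data checked only the arithmetic of the SE step, because their statistic was made as the log ratio over a known SE. They cannot show that the authors' statistic has that form.

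The members and the 11 gene lists (256 genes, 248 with a row of their own, 5 of these under an older symbol) were chosen with earlier results of these data known. All members are named, beside genes picked by name in the lists and, of each list, at most 3 called genes with the largest ratio in each direction at 1 FPKM or more. Neighbours are the nearest rows within 100 kb. Alternatives were a stricter q, a minimum ratio, a level filter, pseudocounts and upper quartile scaling, the last also with p computed again from the shifted ratio and its SE (two-sided normal tail, Benjamini-Hochberg over all tested rows; 253 rows kept the deposited p).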

Additional observations from a re-analysis of the deposited data

How the results depend on the processing

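Scaling both groups to the same upper quartile shifted every log2 ratio by 0.04. With the deposited q kept, no count of called members or list genes changed, but that setting cannot lose a call. With p computed again from the shifted ratio and its SE, 4 members were higher and 1 lower as before. This alternative was chosen after seeing the data. Over all tested rows 2247 were then higher and 1931 lower. Higher and lower, the lists gave 3 and 22 epithelial, 6 and 4 mesenchymal, 2 and 4 co-repressor and 4 and 4 turnover genes. There were also 6 and 2 bHLH, 5 and 2 neuronal and 7 and 1 neural crest genes. The fibroblast, primitive streak, endoderm and ES cell lists kept their counts. At q under 0.01 the members gave 4 higher and 1 lower, as before. With a ratio of at least 2, 0 members were lower by the authors' Cuffdiff test. Twist1 had an unadjusted p under 0.05 and q = 0.000173 in that test, and only its ratio of 0.602 missed the limit. The level filter is no check of the members' calls, because Scrt1 and Twist1 reach 1 FPKM only in the group where they are higher; 2 members were higher under it. Adding the row of Zeb1 and Zeb1.1, an alternative chosen after seeing the data, gave 5 higher. Pseudocounts shrank the log2 differences of low genes and turned none: with 1 FPKM, Scrt2 had 0.10, Zeb2 0.52, Snai1 0.93 and Twist1 -0.37.

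In the lists, q under 0.01 left, higher and lower, 1 and 20 epithelial, 5 and 4 mesenchymal, 1 and 3 co-repressor and 3 and 4 turnover genes. It also left 5 and 1 bHLH, 5 and 2 neuronal, 5 and 1 neural crest and 3 and 3 ES cell genes. The fibroblast, primitive streak and endoderm counts stayed as they were at that limit. A ratio of at least 2 left, higher and lower, 0 and 4 epithelial genes, 4 and 0 mesenchymal, 0 and 1 co-repressor, 1 and 0 turnover, 3 and 0 bHLH, 5 and 1 neuronal, 5 and 0 neural crest, 1 and 0 fibroblast, 0 and 1 endoderm and 1 and 1 ES cell genes. With that ratio, 10 primitive streak genes were higher and 0 lower. Under the level filter, 3 mesenchymal, 2 neuronal, 4 neural crest, 2 fibroblast and 11 primitive streak genes were higher. Lower under it were 2 bHLH, 2 neuronal and 2 fibroblast genes, and the other counts stayed as they were. Fewer genes pass such limits by construction.

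No paired analysis was possible because the table holds 1 value per group, so the replicate numbers 3 and 4 that both groups share could not be used; leaving out replicates and a count model were not run for the same reason. Of the 7 members 4 lay under 1 FPKM, where the median SE of tested rows was 0.49 on the log2 scale, against 0.11 above that level.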
